A study of Mus musculus with 36 samples.

Results

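Germline and meiosis genes are kept silent in most somatic cells and are switched on in primordial germ cells, spermatocytes or oocytes. A group of 35 such genes was chosen by name for their known roles in germ cells and set beside 22367 genes annotated as protein-coding. The choice rule uses no value of the peak lists, but the members were chosen with earlier results of these data known. The group holds 7 germ cell determinants and RNA regulators, 12 genes of the piRNA pathway and of the Tudor domain family, 12 genes of the synaptonemal complex, meiotic cohesin and recombination, and 4 other testis genes. Of the 35, 34 are annotated as protein-coding. The exception is Tdrd5, which GENCODE vM1 lists as a long non-coding RNA and which was kept as a member. For each gene and each list of binding sites, peaks were counted whose midpoint lay within 1 kb of any annotated start site of the gene (a TSS peak), or inside the gene body or within 20 kb of either end.

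Binding was measured by ChIP-seq, and 9 lists of peaks were analysed, 1 per library. MBD3 and CHD4, subunits of the NuRD complex, were precipitated from wild-type R1 mouse embryonic stem cells (ESCs), with 2 replicates each, and from wild-type neural progenitor cells (NPCs) derived from R1 ESCs, with 1 list each. The ESCs were kept in serum with LIF plus 2i, and the NPCs in NPC medium. SIN3A, the scaffold of another histone deacetylase complex, was precipitated from wild-type R1 ESCs, once without and once with spike-in chromatin, and these preparations were called at different thresholds, so that spike-in, preparation and threshold cannot be told apart. ZFP296, a zinc finger protein, was precipitated by its GFP tag from ESCs, in 1 list. That line is labelled as R1 ESCs with a ZFP296 BAC, while by the published methods GFP-ZFP296 was introduced into KH2 ESCs. The other 27 of the 36 samples were not analysed here, among them the Zfp296 knockout clones. The ESC MBD3 replicates are described as biological in the study's text, and nothing in the labels says which replicates came from separate cultures.

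In ESCs, NuRD couples the remodelling ATPase CHD4 to histone deacetylases, with MBD3 holding the complex together. Many germline genes have CpG-rich promoters that are methylated in somatic cells, and in ESCs several are held silent by a variant Polycomb complex that contains E2F6 and the paired factors MGA and MAX. MAX and its partners bind the E-box CACGTG, and E2F6 binds the string TTCCCGC. No RNA was measured in this series, so whether the members were transcribed in these cells is not known from these data. Separately, the study sequenced RNA of wild-type and Zfp296 knockout ESCs. It reported Dazl as significantly lower in the knockout, in transcript and in protein.

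The lists held between 2304 and 29974 peaks, and each peak carried a value on a −log10 scale that ranks it within its list and cannot be compared between lists. As a check of the cells, the 7 ESC marker genes had a peak within 20 kb in 6 and 6 cases in the ESC MBD3 replicates, in 6 and 7 cases in the CHD4 replicates, in 7 cases in each SIN3A list and in 4 cases in the ZFP296 list. In NPCs the counts were 0 for MBD3 and 3 for CHD4. Of all genes, 9.29% and 21.1% had such a peak in the ESC MBD3 replicates and 30.5% and 55.8% in the CHD4 replicates. For SIN3A without and with spike-in the shares were 55.6% and 48.6%, and for ZFP296 13.7%. In NPCs they were 9.52% for MBD3 and 42.8% for CHD4, so that the NPC CHD4 count (42.9%) was at the share of all genes. Of the 6 NPC markers found in the annotation, Nes, an intermediate filament gene of neural progenitors, had a peak within 20 kb in both NPC lists and the other 5 had none in either. NPC markers also had peaks in ESC lists, where the counts were 0 and 1 (Pax6) for the MBD3 replicates, 0 and 3 (Nes, Pax6 and Slc1a3) for the CHD4 replicates, 1 (Nes) and 2 (Nes and Pax6) for SIN3A without and with spike-in, and 0 for ZFP296, so that these markers did not separate the cell types. All 29974 peak names of CHD4 replicate 2 refer to a Zfp219 BAC although the library is labelled wild type, so results that rest on CHD4 are given for each replicate.

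CHD4 was the factor found most often at the members' start sites in ESCs, and SIN3A was nearly missing from them. CHD4 replicate 1 had a TSS peak at 8 of the 35 members (22.9%), against 8.49% of all protein-coding genes, and replicate 2 at 12 members (34.3%), against 22.8%. The 6 members with a TSS peak in both replicates (17.1%, against 6.8% of all genes) were Dazl, Sycp2, Hormad1, Dmc1, Tex15 and Tex14. SIN3A without spike-in had a TSS peak at 3 members (8.57%), against 41.2% of all genes, and SIN3A with spike-in at 1 member (2.86%), against 33.8%. Only Tex14 was in both SIN3A lists, against 30.4% of all genes, and the same 3 members were in at least 1, against 44.6%. MBD3 had a TSS peak at 0 members in replicate 1, where 2.36% of all genes had one, and at 1 member, Tex14, in replicate 2, where 3.43% did. Both MBD3 replicates had one at 0.948% of all genes and at least 1 of them at 4.84%. The ZFP296 list had 1 member with a TSS peak, against 2.88% of all genes. In NPCs, MBD3 had 0 members against 2.49%, and CHD4 had 2 members (5.71%) against 13.1%.

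**Figure D1:**
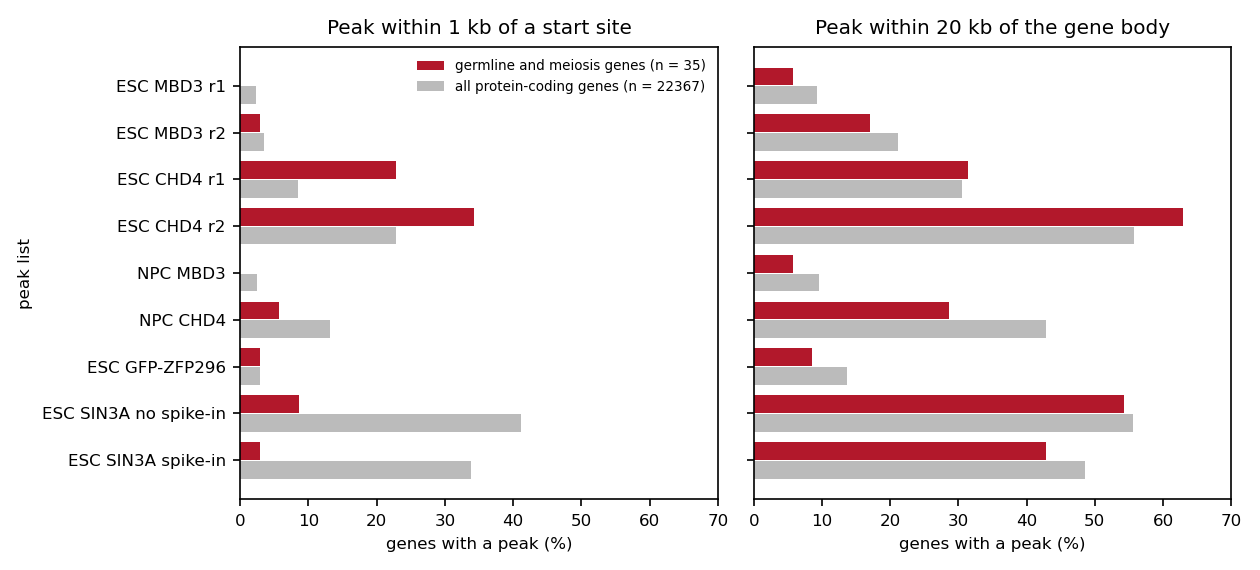
Share of genes with a peak (x axis, percent) in each of the 9 lists (y axis), within 1 kb of a start site on the left and within 20 kb of the gene body on the right. Red bars stand for the 35 germline and meiosis genes and grey bars for all 22367 protein-coding genes, and on the left the red bar is the longer one in the lists of ESC CHD4 replicates 1 and 2 only.

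The CHD4 peaks at members were mostly of middling or low rank. Their median value was 6.78 in replicate 1 (9 peaks) and 7.14 in replicate 2 (13 peaks), below the medians of 7.63 and 7.996 over all TSS peaks of those lists. With only peaks of a value of at least 10, the count was 1 member (2.86%) in replicate 1, against 2.51% of all genes, and 2 members (5.71%) in replicate 2, against 8.66%, counts too small to judge an excess among strong peaks. The low SIN3A counts did not depend on weak peaks, since at that minimum 2 members against 32.2% of all genes, and 1 member against 16.3%, had a SIN3A peak without and with spike-in.

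Seen gene by gene, CHD4 without SIN3A was the usual state of the members that carried CHD4. Of the 14 members with a TSS peak in at least 1 ESC CHD4 list (40% of the members, against 24.5% of all genes), 3 also had a SIN3A TSS peak in at least 1 list, Tdrd7, Stag3 and Tex14. Among all genes with a CHD4 TSS peak in at least 1 list the share with SIN3A was 78.3%. The 11 members with CHD4 and no SIN3A TSS peak made up 31.4% of the group, against 5.32% of all genes. They include Nanos3, whose CHD4 TSS peak overlaps a SIN3A peak that was not counted because its midpoint lies 1.11 kb from the start. Of the 14, Tex14 alone had MBD3 (against 17.2%) and ZFP296 (against 7.76%), and Tdrkh alone had NPC CHD4 (against 32.4%). Of the 6 members with CHD4 in both replicates, only Tex14 also had SIN3A, MBD3 or ZFP296, where the shares among the 1521 genes with CHD4 in both replicates were 85.5%, 32.5% and 13.9%. The MBD3 and ZFP296 TSS peaks of Tex14 lay at an internal start, 21975 and 21836.5 bp inside the gene, and overlapped no CHD4 peak. NPC CHD4 was present at 0 of these 6 members, against 43.3% of those 1521 genes. Dazl, Sycp2, Hormad1, Dmc1 and Tex15, 14.3% of the members, combined CHD4 in both replicates with no SIN3A peak, a state found at 221 genes (0.988%) in all. Without CHD4 replicate 2, the members with CHD4 in replicate 1 were these 6 plus Nanos3 and Spo11, and of those 8 again only Tex14 had a SIN3A peak inside the 1 kb limit, with that of Nanos3 just outside it. The share with SIN3A among all genes with CHD4 in replicate 1 was not computed. Of all genes, with or without CHD4, 44.6% had a SIN3A TSS peak in at least 1 list. No test was made over the members, and the shares of all genes are given for comparison only.

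**Figure D2:**
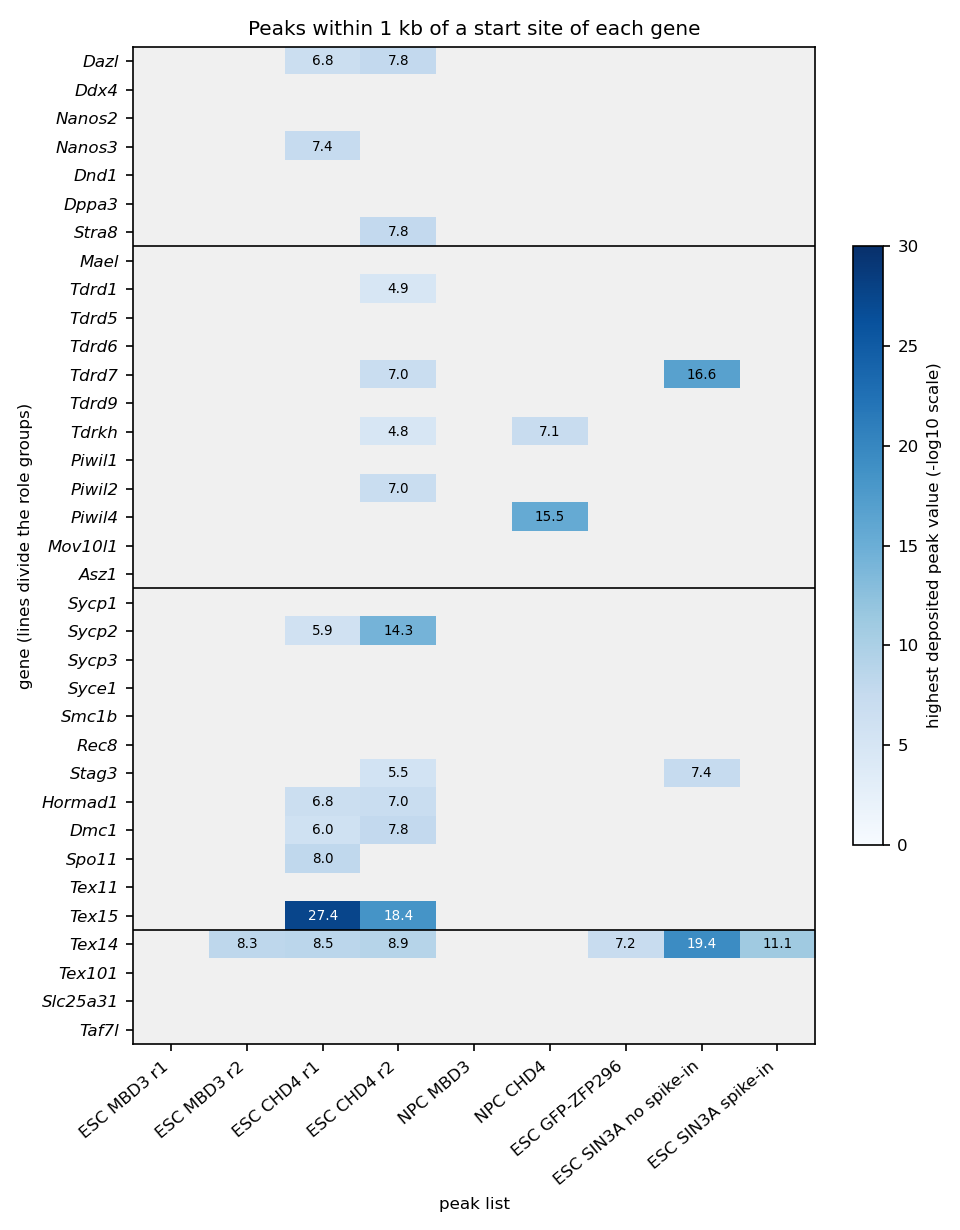
Highest deposited value (colour and number, −log10 scale) of the peaks within 1 kb of a start site for each of the 35 genes (y axis) in each of the 9 lists (x axis). Filled fields lie mostly in the columns of ESC CHD4 replicates 1 and 2, Tex15 has the highest values there (27.4 and 18.4), Tex14 is filled in 6 lists, and 20 genes are empty throughout.

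The sequences under 5 of the CHD4 peaks are shown because these members carried CHD4 in both ESC replicates and SIN3A in neither list. Each was read from the mm9 reference in the direction of the gene, leaving out any annotated UTR, from replicate 1 for Hormad1, Dmc1 and Sycp2 and from replicate 2 for Dazl and Tex15, where the peak of replicate 1 lies inside the longer interval or overlaps it. Capitals mark every CACGTG and every TTCCCGC, read on either strand (TTCCCGC on the other strand is GCGGGAA). The strings are different and can share no more than 1 base at an end.
Hormad1, chr3:95363384-95363590, plus strand: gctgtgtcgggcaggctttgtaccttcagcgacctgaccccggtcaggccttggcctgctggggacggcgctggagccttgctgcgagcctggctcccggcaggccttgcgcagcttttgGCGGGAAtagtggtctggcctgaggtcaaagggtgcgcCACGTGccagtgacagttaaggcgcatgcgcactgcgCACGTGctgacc
Dazl, chr17:50432218-50432484, minus strand: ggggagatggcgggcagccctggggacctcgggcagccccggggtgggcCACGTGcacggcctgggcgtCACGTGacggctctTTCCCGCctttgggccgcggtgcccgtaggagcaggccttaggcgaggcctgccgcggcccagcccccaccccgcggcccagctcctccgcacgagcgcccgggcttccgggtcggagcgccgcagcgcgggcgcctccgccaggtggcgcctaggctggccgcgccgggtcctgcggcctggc
Dmc1, chr15:79435252-79435391, minus strand: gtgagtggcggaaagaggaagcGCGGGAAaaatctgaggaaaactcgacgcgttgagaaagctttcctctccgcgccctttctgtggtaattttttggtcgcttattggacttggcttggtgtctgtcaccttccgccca
Tex15, chr8:34627517-34627795, plus strand: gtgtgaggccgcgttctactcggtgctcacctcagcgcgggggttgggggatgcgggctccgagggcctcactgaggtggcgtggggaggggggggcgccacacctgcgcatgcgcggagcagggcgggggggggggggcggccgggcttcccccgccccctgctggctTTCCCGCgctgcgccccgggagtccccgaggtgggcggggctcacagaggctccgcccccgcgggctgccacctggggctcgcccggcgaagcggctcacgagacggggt
Sycp2, chr2:178142391-178142547, minus strand: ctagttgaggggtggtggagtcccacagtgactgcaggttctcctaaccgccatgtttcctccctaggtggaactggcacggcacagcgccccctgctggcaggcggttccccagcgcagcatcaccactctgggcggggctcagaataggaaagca

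Hormad1 carries 2 E-boxes and 1 E2F string in the printed interval, and Dazl has the same numbers of both strings, all near the upstream end of the interval. Dmc1 and Tex15 each hold 1 E2F string and no E-box, and Sycp2 holds neither. The counts depend on the replicate printed. The overlapping peaks of replicate 1 at Dazl and Tex15 hold 0 of either string. Their strings thus lie only in the intervals of the library with the Zfp219 names. The shorter Hormad1 peak of replicate 2 holds 1 E-box and 1 E2F string. In windows of 300 bp centred on the CHD4 TSS peaks of all members, TTCCCGC was present in 4 of 9 peaks of replicate 1, against 6.32% of the 2120 TSS peaks of all genes, and in 7 of 13 peaks of replicate 2, against 7.47% of 6402. The genes were Dazl, Hormad1, Dmc1 and Tex14 in replicate 1, with Stag3 and Tex15 in addition in replicate 2. The 7 peaks of replicate 2 came from 6 genes, since Tex14 had 2. The median CpG ratio of the windows was 0.746 at members, against 0.627 over all genes, in replicate 1. In replicate 2 it was 0.779, against 0.712. Whether this difference bears on the counts of TTCCCGC, which holds a CpG, was not tested. CACGTG was present in 2 of 9 peaks, against 11.2%, and in 4 of 13 peaks, against 8.73%. A matching string describes the sequence and does not show that a factor was bound there.

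Among the germ cell determinants, Dazl, which encodes an RNA-binding protein needed for germ cell development, had CHD4 peaks in both replicates and in no other list. On chromosome 17, replicate 1 held chr17:50432227-50432386 with a value of 6.78 and chr17:50432791-50432951 with a value of 4.46, and replicate 2 held chr17:50432191-50432484 with a value of 7.84. The first of these and the peak of replicate 2 overlap in an intron, near an internal start site of Dazl, and the remaining one lies in a UTR, 53 bp from the outer start. No peak of the other 7 lists overlapped them, and no other peak of any list lay within 20 kb of Dazl.

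Nanos3, an RNA-binding protein gene that keeps primordial germ cells alive, had the densest binding of all members, but nearly all of it outside the 1 kb limit. Its 1 TSS peak, of CHD4 replicate 1 at chr8:86701336-86701552 with a value of 7.40, had its midpoint 993 bp upstream of the start, just inside the limit. Peaks of 4 other lists that overlap it had midpoints just outside, at 1.07 kb for MBD3 replicate 2 (value 8.65), 1.11 kb for SIN3A without spike-in (10.7), 1.13 kb for ZFP296 (24.2) and 1.19 kb for CHD4 replicate 2 (21.2). The ZFP296 peak ranked above 97.3% of its list and that of CHD4 replicate 2 above 95.3%. For this gene the list in which a TSS peak was counted was therefore set by the limit.

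Upstream of Nanos3, peaks ran on to the edge of the 20 kb window. CHD4 had 9 peaks there in replicate 1, a number reached by 0.756% of all genes, and 16 in replicate 2, reached by 0.541%. MBD3 had 2 and 4 peaks, ZFP296 had 2, SIN3A without spike-in had 6 and with spike-in 1. In NPCs, MBD3 had 1 peak and CHD4 had 2. Near 15.6 kb upstream of the start, an NPC CHD4 peak overlapped peaks of all other lists but SIN3A with spike-in. The value there was 6.94 and 16.8 for the MBD3 replicates, 12.3 and 26.0 for the CHD4 replicates, 11.3 for NPC MBD3, 15.3 for NPC CHD4, 4.97 for ZFP296 and 28.3 for SIN3A without spike-in. All of these peaks are intergenic, and the nearest start site of another gene belonged to 4930432K21Rik or Zswim4.

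Dppa3 (Stella), which encodes a maternal factor that is also made in ESCs, had no TSS peak in any list and a shared site a little farther out. MBD3 replicate 1 had a peak of value 13.8 centred 1.74 kb upstream of its start. At the same place the value was 10.3 for MBD3 replicate 2, 19.8 for CHD4 replicate 1, 16.5 for CHD4 replicate 2 and 14.4 for SIN3A without spike-in. These 5 peaks overlap between positions 122574546 and 122574964 of chromosome 6. No peak of an NPC list or of ZFP296 lay within 20 kb of Dppa3. CHD4 had 5 and 9 peaks in the window in replicates 1 and 2, several of them at or near Gdf3, a TGF-beta family ligand gene that is the next gene upstream. A window of 2 kb in place of 1 kb brought Dppa3 in.

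Stra8, the gatekeeper gene of entry into meiosis, had a TSS peak in CHD4 replicate 2 only, at chr6:34870136-34870267 with a value of 7.77. Stronger CHD4 peaks lay in its intron just outside the limit, 1.14 kb from a start site with a value of 14.2 in replicate 1 and 1.15 kb with a value of 11.7 in replicate 2, and both replicates also had a peak 6.23 and 6.26 kb upstream (9.98 and 11.7). The SIN3A peaks of the Stra8 window sat at the start of the neighbour Wdr91, 14 and 33 bp from it. NPC CHD4 had 2 peaks in the window, 2.94 and 23.9 kb downstream of a start. Ddx4, which encodes the germ cell RNA helicase Vasa, and Nanos2 and Dnd1, which encode RNA-binding regulators of germ cells, had no TSS peak in any list. The other gene nearest to the SIN3A peaks of their windows was Slc38a9 for Ddx4 and Irf2bp1 for Nanos2, and Hars2, Wdr55, Ik or Ndufa2 for Dnd1, and Nanos2 also had 2 CHD4 peaks in replicate 2, of which 1 lay 66.5 bp from the start of Mypop.

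**Figure D3:**
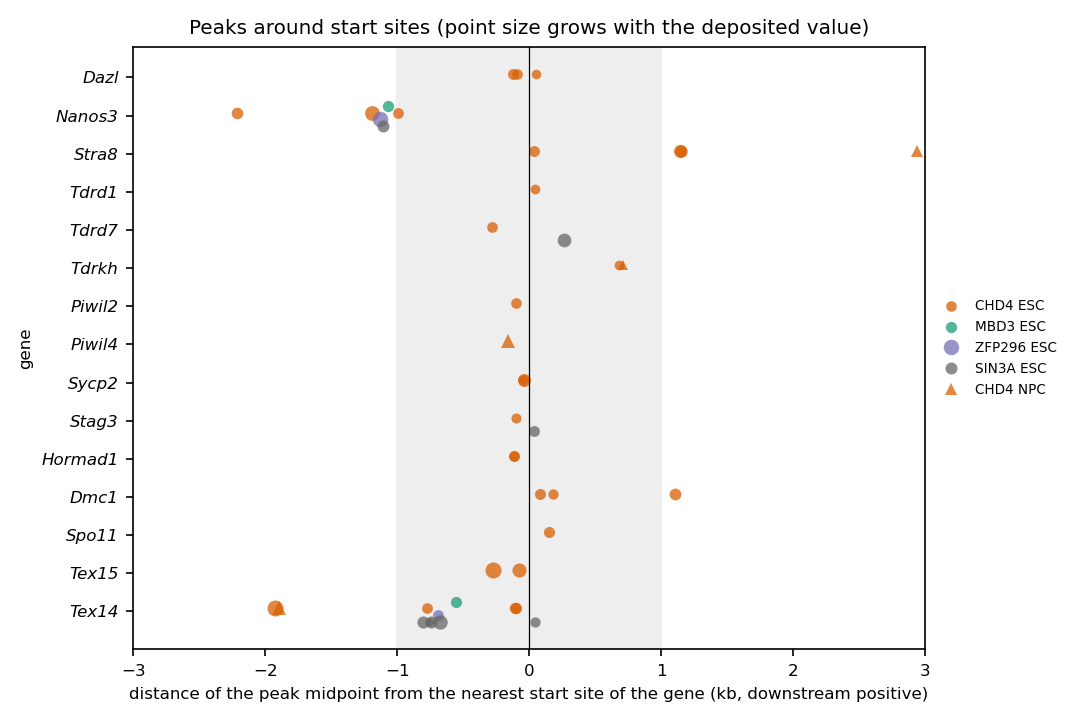
Distance of each peak midpoint from the nearest start site (x axis, kb, downstream positive) for the 15 genes with a TSS peak in at least 1 list (y axis). Colours give the factor, circles ESC and triangles NPC lists, point size grows with the deposited value, and the grey band is the 1 kb limit. Peaks of Nanos3 straddle the upstream limit, and those of Sycp2, Hormad1 and Dazl lie near a start site. So do the TSS peaks of Dmc1, which has a further CHD4 peak just past the downstream limit.

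The piRNA pathway protects the germline genome from transposons by small RNAs bound to PIWI proteins, and its Tudor domain proteins tether the PIWI proteins in germ granules. Of these 12 genes, 0 had a TSS peak in CHD4 replicate 1, against 8.49% of all genes, and 4 (33.3%) had one in replicate 2, against 22.8%, so that CHD4 at this group rested on the library with the Zfp219 names. Tdrd1 had a peak of value 4.89 at chr19:56900733-56900906, and Piwil2, the gene of the PIWI protein MILI, one of 6.99 at chr14:70828904-70829090, 96 bp upstream of its start. Tdrd7 had CHD4 (value 6.99, chr4:45985322-45985528) and SIN3A without spike-in (16.6, chr4:45985068-45985673) in overlapping peaks at an internal start site, 7219 and 7164.5 bp from the 5′ end of the gene.

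Tdrkh, a partner of PIWI proteins at mitochondria, was the only member with a CHD4 TSS peak in both cell types. The peak had a value of 4.78 in ESC replicate 2 (chr3:94217843-94218008) and of 7.14 in NPCs (chr3:94217873-94218030), and the intervals overlap in an intron. Piwil4 (MIWI2), which acts in the nucleus of fetal male germ cells, had a TSS peak in NPC CHD4 only, with a value of 15.5 at chr9:14522919-14523230, at an internal start site 22102.5 bp inside the gene. Downstream of Piwil4, peaks of MBD3 replicate 2 (13.9), CHD4 replicate 2 (10.7) and ZFP296 (15.8) overlapped, the last centred 24.4 kb from the nearest start of the gene, in intergenic sequence.

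The other 7 genes of the group, Mael, Tdrd5, Tdrd6, Tdrd9, Piwil1, Mov10l1 and Asz1, had no TSS peak in any list. Mael, Tdrd6 and Piwil1 (MIWI) also had no peak within 20 kb in any list. Tdrd5 had 2 peaks each of MBD3 replicate 2 and CHD4 replicate 2 in its window, which share an intronic site. Mov10l1, the gene of a helicase that starts piRNA production, had 1 SIN3A peak in each list, at the start of Panx2, and Asz1 had 1 weak NPC CHD4 peak (5.71). Tdrd9 had 1 NPC MBD3 peak (10.6) that overlapped an NPC CHD4 peak (7.60), beyond the far end of the gene, and an NPC CHD4 and a SIN3A peak of each list at the start of 2010107E04Rik.

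Meiotic chromosomes are built on an axis of cohesin and HORMAD proteins, joined by the synaptonemal complex, and recombination starts with breaks made by SPO11 that are repaired with DMC1. Of these 12 genes, 5 (41.7%) had a CHD4 TSS peak in replicate 1, against 8.49% of all genes, and 5 in replicate 2, against 22.8%, and 4 had one in both, against 6.8%. SIN3A had a TSS peak at 1 of the 12 without spike-in (8.33%, against 41.2%) and at 0 with it (against 33.8%). The counts were 0 for the MBD3 replicates (against 2.36% and 3.43%), for ZFP296 (against 2.88%), for NPC MBD3 (against 2.49%) and for NPC CHD4 (against 13.1%).

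Tex15, a gene needed for recombination and for transposon silencing in the male germline, carried the strongest CHD4 peak at any member's start. The value was 27.4 in replicate 1 (chr8:34627395-34627644, above 98.8% of its list) and 18.4 in replicate 2 (chr8:34627395-34628052, above 92.5%). Both intervals begin at the same base and are centred in an intron, 276.5 and 72.5 bp upstream of an internal start. The SIN3A peaks of its window lay 296.5 and 322 bp from the start of Ppp2cb, a phosphatase gene downstream, and not at Tex15.

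Sycp2, which encodes a protein of the lateral elements, had CHD4 peaks of value 5.93 in replicate 1 (chr2:178142317-178142547) and of value 14.3 in replicate 2 (chr2:178142323-178142526), centred 42 and 34.5 bp upstream of its start. Hormad1, which encodes a protein of the meiotic axis, had peaks of 6.78 in replicate 1 (chr3:95363384-95363590) and of 7.00 in replicate 2 (chr3:95363410-95363560), centred 112 and 114 bp upstream. Dmc1 had peaks of 5.98 in replicate 1 (chr15:79435252-79435417) and of 7.77 in replicate 2 (chr15:79435359-79435501), in its intron and a UTR, with a further CHD4 peak of replicate 2 just past the limit at 1105.5 bp (9.94). At each of these genes the intervals of both replicates overlapped, and none overlapped a peak of MBD3, ZFP296, SIN3A or NPCs.

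Spo11 had a TSS peak in CHD4 replicate 1 only, with a value of 8.02 at chr2:172805428-172805581, in a coding exon near an internal start. Farther out, peaks of MBD3 replicate 2 (11.7), CHD4 replicate 2 (6.99) and SIN3A without spike-in (7.07) overlapped in an intron of Rae1, 1209, 1207 and 1233.5 bp from the start of that gene. Stag3, a cohesin subunit gene that shares its start region with Gpc2 (235 bp between the starts), had CHD4 in replicate 2 (5.53, chr5:138721560-138721714) and SIN3A without spike-in (7.40, chr5:138721752-138721893) in adjacent peaks that do not overlap.

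The other 6 of these 12 genes, Sycp1, Sycp3, Syce1, Smc1b, Rec8 and Tex11, had no TSS peak in any list. They encode core parts of the synaptonemal complex, of cohesin and of crossover formation. Syce1, Smc1b and Tex11 also had no peak within 20 kb. Smc1b was without a peak even though its start lies 142 bp from that of Ribc2. The Rec8 window held a CHD4 peak of replicate 2 and a SIN3A peak with spike-in at Irf9 and SIN3A peaks at the starts of Ipo4 and Tm9sf1 (24.1 and 26.0 without spike-in, 14.4 and 9.93 with it), while Sycp3 had CHD4 peaks of both replicates inside its neighbour Chpt1 and Sycp1 had 1 NPC CHD4 peak (8.56).

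Of the other testis genes, Tex14, which is required for the bridges between dividing germ cells, was the only member with a TSS peak in more than 2 lists. It had a TSS peak in 6 lists, as 1.13% of all genes did, and it shares its start region with Rad51c, a DNA repair gene, with 111 bp between the nearest starts. CHD4 peaks between these starts had values of 8.51 in replicate 1 (chr11:87218379-87218558) and 8.93 in replicate 2 (chr11:87218339-87218586). They were centred 12.5 and 6.5 bp from that Rad51c start, and 98.5 and 104.5 bp upstream of the Tex14 start. At the same place SIN3A without spike-in had a peak of 5.999 (chr11:87218481-87218742), which overlaps both. The highest SIN3A peaks lay on the Rad51c side, with 19.4 without spike-in (chr11:87217761-87218017) and 11.1 with it (chr11:87217657-87217866). They were centred 36 and 163.5 bp from a different annotated start of Rad51c. A second CHD4 peak of replicate 2 overlaps both SIN3A peaks (7.14, chr11:87217702-87217891). A further cluster lay at an internal start of Tex14. There MBD3 replicate 2 had a peak of 8.25 (chr11:87240460-87240624) and ZFP296 one of 7.19 (chr11:87240135-87240672), 21975 and 21836.5 bp inside the gene. SIN3A had a peak there in both lists, with 10.7 without spike-in (chr11:87240272-87240432) and 3.06 with it (chr11:87240243-87240420), 21785 and 21764.5 bp inside the gene. The ZFP296 peak overlaps the other 3, and no ESC CHD4 TSS peak was found there.

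Inside Tex14, which is 151 kb long, ZFP296 had 5 peaks within the window, a number reached by 0.188% of all genes, and NPC CHD4 had 7, reached by 1.74%. CHD4 had 1 peak in replicate 1 and 8 in replicate 2, and 4 of the sites of ZFP296 overlapped a CHD4 peak of replicate 2. Tex101, the gene of a sperm surface protein, Slc25a31, the gene of a testis ADP/ATP carrier, and Taf7l, the gene of a testis TFIID subunit, had no TSS peak. Tex101 had 1 CHD4 peak of replicate 2 (9.94) and 1 SIN3A peak without spike-in (20.1), both intergenic. The peaks of the Slc25a31 window all lay at the start of Hspa4l, and Taf7l had no peak within 20 kb.

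Over the group, 20 of the 35 members (57.1%) had a TSS peak in no list, against 47.8% of all genes, while 15 (42.9%) had one in at least 1 list, against 52.2%, and 7 (20%) had no peak within 20 kb in any list, against 26.2%. Those 7 were Mael, Tdrd6, Piwil1, Syce1, Smc1b, Tex11 and Taf7l. The distance from a start of these 7 genes to the nearest peak of any list ranged from 24.6 kb for Tex11 to 125 kb for Taf7l. The members were longer than genes at large, with a median length of 32.2 kb against 15.4 kb, so that their 20 kb windows were wider, while the median number of annotated start sites was 2 in both.

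Within 20 kb, the members came close to all genes in most lists. CHD4 had a peak at 11 members (31.4%, against 30.5%) in replicate 1 and at 22 (62.9%, against 55.8%) in replicate 2, and SIN3A at 19 (54.3%, against 55.6%) without and at 15 (42.9%, against 48.6%) with spike-in. With each peak given only to the nearest start, the SIN3A counts were 6 (17.1%, against 41.3%) and 2 (5.71%, against 33.5%). MBD3 had a peak at 2 members (5.71%, against 9.29%) and at 6 (17.1%, against 21.1%), and ZFP296 at 3 (8.57%, against 13.7%), namely Nanos3, Piwil4 and Tex14. In NPCs the counts were 2 (5.71%, against 9.52%) for MBD3 and 10 (28.6%, against 42.8%) for CHD4. The MBD3 peaks of replicate 1 lay at Nanos3 and Dppa3 only, and those of NPC MBD3 at Nanos3 and Tdrd9.

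**Figure D4:**
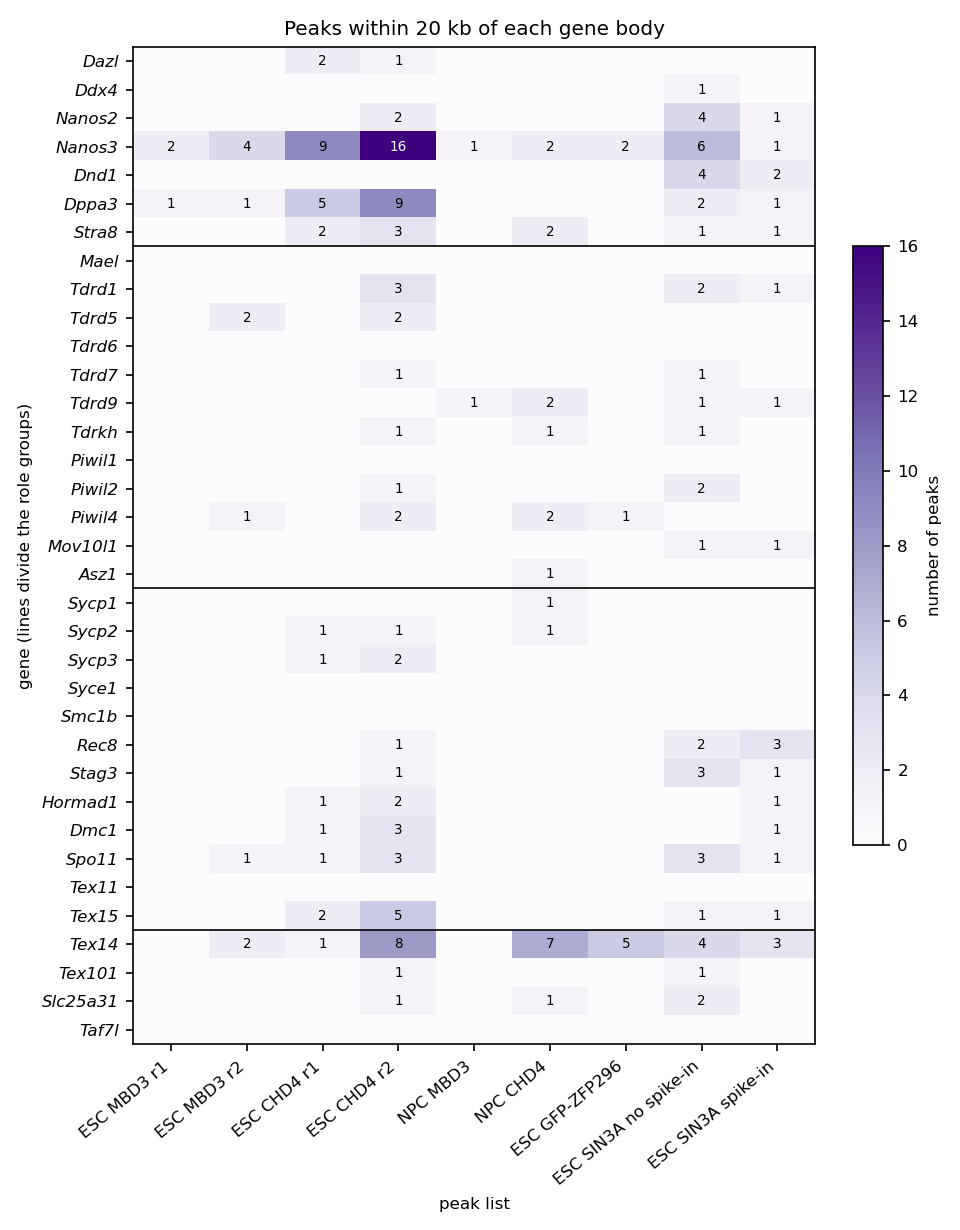
Number of peaks (colour and figure) inside the gene body or within 20 kb of it, for each of the 35 genes (y axis) in each of the 9 lists (x axis). Nanos3 stands out with 9 and 16 CHD4 peaks, followed by Dppa3 with 5 and 9 and by Tex14, and 7 genes are empty in all lists.

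Where SIN3A was found in the members' windows, it was mostly at the start of another gene. Of the 42 SIN3A peaks without spike-in, 5 were TSS peaks of members, 25 lay within 1 kb of a start of another protein-coding gene only, and 12 lay at no start. With spike-in, 2 of 20 were TSS peaks of members, 15 lay at another start only and 3 at none. Of the TSS peaks of members, 3 of the 5 without spike-in and 1 of the 2 with it also lay within 1 kb of another gene's start. Of all SIN3A peaks, 72.8% and 78.9% lay within 1 kb of a start. For CHD4, 9 of the 26 window peaks of replicate 1 were TSS peaks of members, 1 lay at another start only and 16 at none. In replicate 2 the numbers were 13, 5 and 51 of 69. Of all CHD4 peaks, 18.1% in replicate 1 and 21.4% in replicate 2 lay within 1 kb of a start. The large number of CHD4 peaks at no start is therefore a trait of these lists and not particular to the members. The median distance from a member's start to the nearest SIN3A peak was 30.02 kb without and 44.1 kb with spike-in, against 14.6 and 29.9 kb over all genes, whereas for CHD4 it was 55.1 and 14.0 kb, against 88.0 and 19.7 kb.

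The starts of 3 members, Tex14, Stag3 and Smc1b, lay within 1 kb of another protein-coding start, against 13.7% of all genes. Without genes that share a start, SIN3A had a TSS peak at 1 of 32 members (Tdrd7), against 36.1% of genes, without spike-in, and at 0 with it, against 29.5%. CHD4 then had 7 of 32 members in replicate 1, against 8.11%, and 10 in replicate 2, against 22.1%. MBD3 and ZFP296 then had a TSS peak at 0 members, against 2.29% and 3.42% of genes for the MBD3 replicates and 2.57% for ZFP296. In NPCs, MBD3 had 0 members, against 2.42%, and CHD4 had 2, against 12.5%.

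The members' 5′ ends had a higher median CpG content than those of genes without SIN3A at large. In the 300 bp from 250 bp before to 50 bp after the 5′ end of the gene, the ratio of observed to expected CpG had a median of 0.686 over the members and of 0.534 over all genes. Over all genes the median was 0.794 with a SIN3A TSS peak in at least 1 list and 0.268 without, and the 32 members without SIN3A had a median of 0.665. A ratio of at least 0.6, a class set after the values were seen, was found at 21 members (60%) and at 45.2% of all genes. In that class, 2 of the 21 members had SIN3A in at least 1 list, against 77.2% of the 10103 genes, and 4 had CHD4 in both replicates, against 10.2%. CHD4 in at least 1 replicate was found at 7 of the 21, against 37.1%, and NPC CHD4 at 1, against 20.3%. Below the ratio of 0.6, CHD4 in at least 1 replicate was found at 7 of 14 members, against 14.2%, and in both at 2, against 4.01%. SIN3A was found at 1 of these 14, against 17.8%, and NPC CHD4 at 1, against 7.19%. The class was read at the outer 5′ end, which can lie away from the start with CHD4. Of these 7 members, the CHD4 peaks of Tdrd7 (0.950), Tex15 (0.797 and 0.831) and Spo11 (0.675) had ratios above 0.6. Those of Nanos3 (0.159), Stra8 (0.169), Piwil2 (0.567) and Sycp2 (0.407 and 0.408) had ratios below it.

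**Figure D5:**
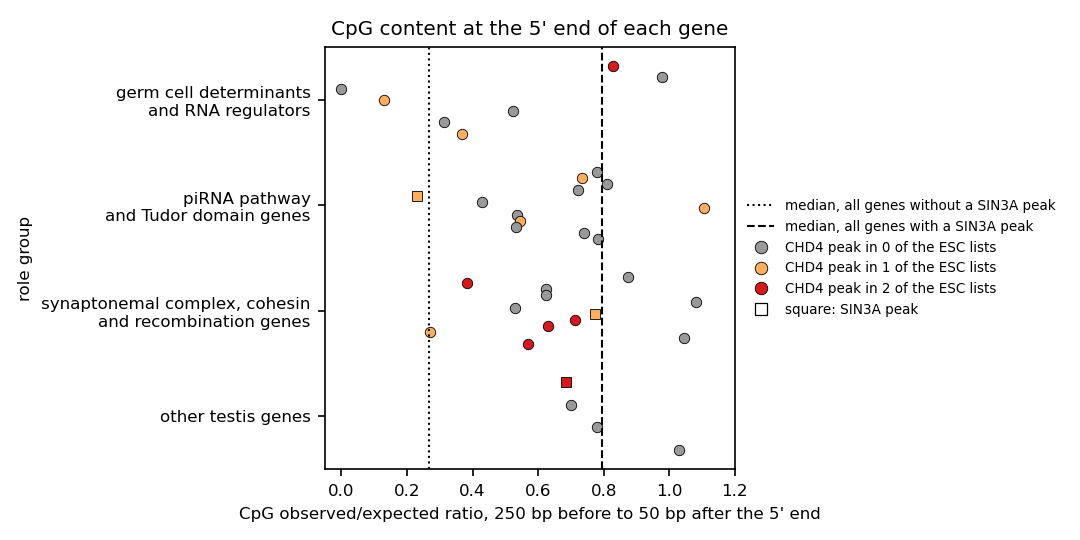
Observed over expected CpG ratio at the 5′ end of each of the 35 genes (x axis), by role group (y axis), coloured by the number of ESC CHD4 lists with a TSS peak and drawn as a square where SIN3A had one. The broken lines mark the medians of all genes with (0.794) and without (0.268) a SIN3A TSS peak, and most members without SIN3A lie to the right of the lower median.

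The E-box and the E2F string were both frequent at the members' 5′ ends. This window can miss the start at which CHD4 was counted, since CHD4 was counted at any annotated start. CACGTG was present in the 300 bp of 12 members (34.3%), against 7.78% of all genes, and TTCCCGC in 7 (20%), against 5.58%. Among the 21 members with CHD4 in no ESC list the counts were 9 (42.9%, against 7.11% of all genes of that class) and 5 (23.8%, against 4.92%). Among the 14 with CHD4 in at least 1 list they were 3 (21.4%, against 9.86%) and 2 (14.3%, against 7.63%). These counts do not describe the sequence at the CHD4 peaks. Dazl, Dmc1 and Stag3 held neither string at the 5′ end, and Tex15 held no TTCCCGC there. Each of these genes held TTCCCGC in the 300 bp centred on a CHD4 TSS peak of replicate 2, and Dazl and Stag3 also held CACGTG there. In the 5′ end window, Ddx4, Sycp3, Hormad1 and Slc25a31 held both strings. With the windows of all annotated starts, 18 members (51.4%) held at least 1 of the strings, against 20.5% of all genes.

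Related genes that are not members were counted in the same way. Of 20 other meiosis and piRNA genes, CHD4 had a TSS peak at 6 (30%, against 8.49% of all genes) in replicate 1 and at 9 (45%, against 22.8%) in replicate 2. SIN3A had one at 5 (25%, against 41.2%) without spike-in and at 7 (35%, against 33.8%) with it. In NPCs, CHD4 had one at 6 (30%, against 13.1%) and MBD3 at 2 (10%, against 2.49%), while the ESC MBD3 replicates and ZFP296 had 0, against 2.36%, 3.43% and 2.88%. The low SIN3A count with spike-in and the low NPC CHD4 count of the members were thus not seen in this list. Syce2, a synaptonemal complex gene, had a TSS peak in 5 lists, and Mybl1, the gene of a transcription factor of pachytene spermatocytes, in 4. Of 6 genes that specify primordial germ cells, all 6 had CHD4 in replicate 2, against 22.8%, and 1 of them, Prdm14, had it in replicate 1, against 8.49%. SIN3A was at 4 (66.7%, against 41.2%) without and at 3 (50%, against 33.8%) with spike-in, and Prdm14 had a TSS peak in 5 lists.

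Of 17 genes that encode known repressors of germline genes, SIN3A had a TSS peak at 14 (82.4%, against 41.2% of all genes) without and at 12 (70.6%, against 33.8%) with spike-in. CHD4 had one at 7 (41.2%, against 8.49%) and at 10 (58.8%, against 22.8%) in replicates 1 and 2, and MBD3 at 3 (17.6%, against 2.36%) and at 4 (23.5%, against 3.43%). In NPCs, MBD3 had one at 4 (23.5%, against 2.49%) and CHD4 at 3 (17.6%, against 13.1%). ZFP296 had one at 1 (5.88%, against 2.88%). Dnmt3a, a de novo DNA methyltransferase gene, had a TSS peak in 7 lists, as did Uhrf1 and Ehmt2, genes of maintenance methylation and of a histone methyltransferase. Ring1 had one in 6 lists, Rybp in 5, and Max, L3mbtl2 and Dnmt3b in 4.

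A missing peak means only that the authors' caller found none above its threshold in that library, since the files hold no read counts and no depth per gene. The NPC and ZFP296 lists have no replicate.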

How the data were processed

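ChIP-seq peak lists of 9 samples were analysed. Reads had been mapped by the authors to mm9 with BWA, allowing 1 mismatch, and unique, quality-filtered reads without duplicates were kept, per the study's methods. The submitters' processing notes name SAMtools and MACS2 2.0. The authors called peaks separately in each library over the input of that cell line, and the deposited value of a peak is on a −log10 scale, of a p-value or of a q-value (the sources used here do not say which), so it ranked peaks inside 1 list only. Normalization to equal read numbers appears in the peak names of 7 lists, the exceptions being SIN3A. Depth per library and read counts per peak are not known from the files.

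Start sites were taken from GENCODE vM1 on the same build, and a peak was placed by its midpoint. Counts of members were set beside all 22367 protein-coding genes that met the same rule, with no test and no error across members. The members, the related lists and the named genes were chosen with earlier results of these data known. Every member is named, with each peak at its start sites, and other lists are given by counts, naming genes with a TSS peak in at least 4 lists. The counting was tested on simulated peaks placed at 200 genes, and 200 were placed correctly. Alternatives were a value of at least 10, overlap in place of the midpoint, limits of 2 kb and 50 kb, lists cut to 2304 peaks, the 5′ end only, the nearest start only, and, chosen after seeing the data, leaving out genes with shared starts. Symbols of 3 related genes were matched through RefSeq synonyms, and Sox1 was not matched. Sequences were read with samtools 1.23.1 and pyfaidx 0.9.0.4, counts were made in Python 3.11.15 with numpy 2.4.6, and plots with matplotlib 3.10.9.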

Additional observations from a re-analysis of the deposited data

How the results depend on the processing

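No paired analysis was possible because the counts come from no test. Of 105 recomputed counts, 60 stayed within 1.5 times the reported count and 45 moved further, mostly counts of a few members. Shares of all genes under the same setting stand in brackets. With a value of at least 10, TSS counts were 0 for MBD3 replicate 2 (1.16%), 1 and 2 for the CHD4 replicates (2.51% and 8.66%), 1 for NPC CHD4 (5.14%) and 0 for ZFP296 (0.814%), and 20 kb counts were 1 for MBD3 replicate 1 (3.19%), 4 and 8 for CHD4 (13.9% and 33.5%), 5 for NPC CHD4 (25.3%) and 5 for SIN3A with spike-in (27.3%). With each list cut to its top 2304 peaks, TSS counts were 0 for MBD3 replicate 2 (0.993%), 1 of 35, or 2.86%, for each CHD4 replicate (1.52% and 1.89%), 0 for NPC CHD4 (1.55%) and 0 for each SIN3A list (9.15% and 9.47%), and 20 kb counts were 4 and 3 for CHD4 (9.26% and 10.9%), 2 for NPC CHD4 (9.55%), and 4 and 2 for SIN3A (17% in each). The CHD4 counts at that list length are too small to judge an excess over all genes.

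Overlap in place of the midpoint gave 2 members for MBD3 replicate 2 (3.61%) and 2 for ZFP296 (3%). The 2 kb limit gave 1 and 3 for the MBD3 replicates (2.82% and 4.71%), 2 for ZFP296 (3.71%) and 5 for SIN3A without spike-in (42.2%), and the 50 kb reach gave 4 for MBD3 replicate 1 (15.8%), 18 for CHD4 replicate 1 (43%), 21 for NPC CHD4 (57.9%) and 7 for ZFP296 (21.9%). The 5′ end alone gave 0 for MBD3 replicate 2 (2.45%), 1 for NPC CHD4 (11%) and 0 for ZFP296 (2.34%). Leaving out shared starts gave 0 for MBD3 replicate 2 (3.42%), 0 for ZFP296 (2.57%), and 1 and 0 for SIN3A (36.1% and 29.5%). Giving each peak to the nearest start gave 1 and 6 for NPC MBD3 and NPC CHD4 (5.92% and 29.2%). For SIN3A it gave 6 members (17.1%, against 41.3%) without and 2 (5.71%, against 33.5%) with spike-in, so that the closeness of the 20 kb SIN3A counts to all genes was lost. With 1 replicate left out, the count in both lists ranged from 0 to 1 for MBD3 (2.36% and 3.43%) and from 8 to 12 for CHD4 (8.49% and 22.8%), and SIN3A without spike-in alone gave 3 (41.2%). The cause of these shifts was not tested beyond what each setting removes or adds.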
